A study of Mus musculus with 8 samples.

Results

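The TRIM genes encode a family of ubiquitin ligases, and their RNA was compared between 4T1 tumours given an immune checkpoint inhibitor together with radiation (RI) and 4T1 tumours given the inhibitor alone (ICI). Every gene in the table whose symbol was Trim, a number and at most 1 further letter was taken, which gave 61 of 32098 genes. There were 4 RI tumours (replicates 1, 2, 4 and 5) and 4 ICI tumours (replicates 1, 2, 3 and 4), all of the 4T1 line, a mouse mammary carcinoma, all with the genotype WT, and each measured as RNA of the whole tumour. The labels name neither the inhibitor nor a radiation dose, and do not give the age or strain of the host, whether the tumour measured lay inside the irradiated field, or whether each tumour came from its own animal, so the p-values rest on the spread between 8 samples and not on a known number of animals. The design text speaks of 3 replicates per group, but 4 of each are listed, and none was left out. In bulk tumour RNA, fewer cells of a type and less RNA per cell cannot be told apart.

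TRIM proteins are named for a tripartite motif of a RING domain, B-boxes and a coiled coil. The RING domain recruits the ubiquitin-conjugating enzyme, the coiled coil pairs the protein with itself, and a variable end, often a PRY-SPRY domain, binds the target. Some members are switched on by interferon and act in antiviral defence, where they attach ubiquitin to sensors and adaptors or bind viral capsids. Others are made in most cells and serve transcription, the centrosome, vesicle traffic or apoptosis, and a further set is made in muscle, nerve, testis or red cell precursors.

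The members were placed in 4 lists by what is known of them elsewhere: 14 interferon-inducible, 22 constitutive, 5 with induction reported in some cells and 20 tissue-restricted. Earlier results of these data were known when the lists were chosen, so the lists were not drawn up blind to them. Values are FPKM, fragments scaled for gene length and library size, so levels can be set side by side between genes. Genes that reached 1 FPKM or more in 4 or more tumours were tested with limma on log2(FPKM + 1), and an adjusted p is limma's with Benjamini-Hochberg adjustment over all 13439 genes tested. Of the 61 members 38 were tested. Of these 38, 7 were higher in RI tumours, 2 were lower and 29 did not pass an adjusted p of 0.05. Among all genes tested 17.7% passed, 11.1% as higher and 6.6% as lower. The interferon-inducible list gave 6 of the 7 higher members and no lower one among 10 tested, whereas the constitutive list gave 1 higher and 2 lower among 21 tested. No member of the other lists passed. Of the 6 inducible members called, Trim30d reached 1 FPKM in RI tumours alone, and Trim34a in 4 RI tumours and 1 ICI tumour. The entry of Trim30d and Trim34a into the test thus depended on their level in RI tumours, and the count of 6 includes both. At an unadjusted p under 0.05 the inducible list had 7 higher and 0 lower, and limma voom on recovered fragments called 7 and 0. For the constitutive list these numbers were 6 and 5 unadjusted, and 5 and 2 by voom. A requirement that does not look at group, a mean of at least 5 FPKM, left out Trim30d and Trim34a, and also Trim14. It kept 25 TRIM genes, 7 of them inducible. Of these 7, 3 were called higher (Trim25, Trim30a and Trim56) and 0 lower. The other TRIM genes kept gave 3 higher and 2 lower. On TPM, a rescaling of each library to 1 total, calls over all genes fell from 1486 higher and 887 lower to 192 and 88. The TRIM calls then no longer favoured the inducible list: 1 inducible member (Trim30a) and 2 others (Trim35 and Trim63) were called higher and none lower. The median log2 difference on TPM was 1.05 over the inducible genes tested and 0.13 over the other TRIM genes tested.

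**Figure D1:**
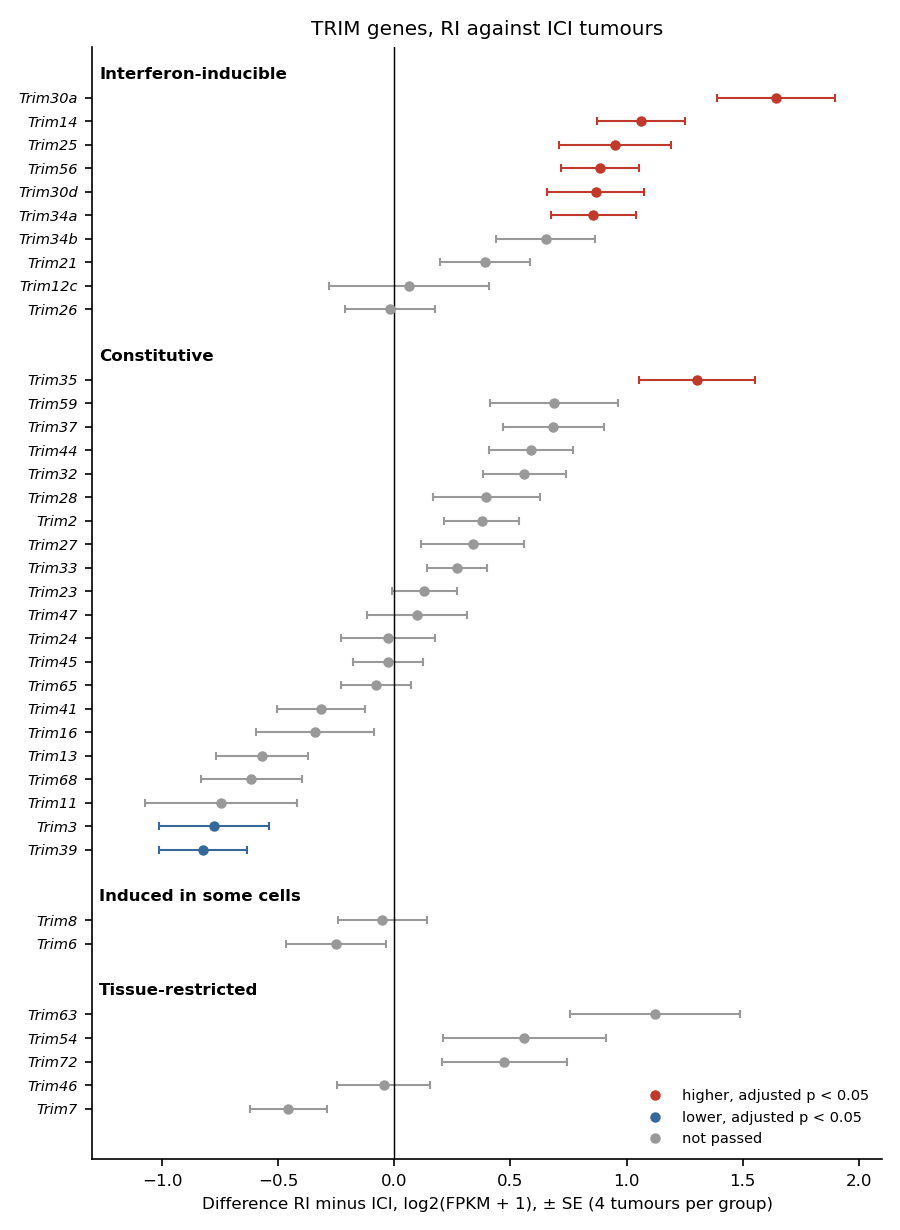
Difference of log2(FPKM + 1), RI minus ICI, for the 38 TRIM genes tested, grouped by list; points are limma estimates and bars are ± SE with 4 tumours per group. The 6 highest of the interferon-inducible list lie between 0.86 and 1.64, and the constitutive list spreads to both sides of 0, with Trim35 at 1.30 and Trim39 at -0.82.

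With the trends of each library on exon length and GC content removed, 9 members were higher and 3 lower, the 9 called above among them, where 10.9% and 9.38% of all genes so tested were called higher and lower.

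The libraries held between 27013060 and 42622665 fragments, recovered from the steps of the FPKM values. The share of fragments from the mitochondrial genome was 2.719% to 3.243% in the RI and 4.409% to 8.21% in the ICI tumours, without overlap, and its part in the results was not tested. The FPKM of all genes summed to 717091.5 in RI 4, against 358242.9 to 367796.6 in the other RI tumours and 429166.9 to 494399.1 in the ICI tumours. The epithelial keratins of the tumour line were abundant, Krt8 at 510.4 ± 187.6 FPKM in RI and 697.9 ± 262.1 FPKM in ICI tumours (SD, n = 4 each). Of the other epithelial markers, Epcam was between 0 and 1.06 FPKM in the RI tumours and between 0.0372 and 5.02 FPKM in the ICI tumours. ICI replicate 1 stood apart, its 11 neutrophil markers adding up to 22677 FPKM, against 109.8 to 284.2 FPKM in the RI and 263.7 to 705.6 FPKM in the other ICI tumours. It also had the highest marker sums of all tumours for B and plasma cells (1488.8 FPKM), endothelium (383.2 FPKM) and erythroid cells (1063.9 FPKM). RI replicate 4 had the lowest sum of TRIM RNA among the RI tumours, 394.7 FPKM against 496.9 to 536.2 FPKM in RI 1, 2 and 5, and the ICI tumours had 368.3 to 448.6 FPKM. Without ICI 1 and RI 4 the fit gave 9 higher and 1 lower members.

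The interferon-inducible members with a raised level were Trim30a, Trim14, Trim25, Trim56, Trim30d and Trim34a. Trim30a is induced by interferon in mouse macrophages, where it restrains Toll-like receptor signalling to NF-kB. It lies on the minus strand of chromosome 7 (GRCm38, chr7:104409025-104465193), and had 22.9, 20.9, 14.4 and 23.8 FPKM in RI 1, 2, 4 and 5, against 9.65, 5.14, 5.84 and 3.72 FPKM in ICI 1, 2, 3 and 4. Every RI tumour lay above every ICI tumour, an arrangement found in 16.7% of all genes tested, and the mean was 20.5 ± 4.23 FPKM in RI and 6.09 ± 2.54 FPKM in ICI tumours (SD, n = 4 each), a ratio of 3.37. The difference of log2(FPKM + 1) was 1.64 with an SE of 0.25 (limma adjusted p = 0.0126), the largest among the 38 members tested.

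The sequence just upstream of the Trim30a start is shown because it holds a match to the interferon-stimulated response element, a sequence known from the promoters of genes that interferon switches on, and because the same match recurs at a neighbouring copy that was also raised. The stretches below are from RefSeq (GRCm38.p6), read 5′ to 3′ on the strand of the gene, and the capitals mark the match, which is GAAA, any 2 bases and GAAA, or on the other strand TTTC, any 2 bases and TTTC.
Trim30a, chr7:104465190-104465259, minus strand: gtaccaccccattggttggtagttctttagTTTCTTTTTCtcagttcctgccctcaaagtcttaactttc
Trim30d, chr7:104507851-104507920, minus strand: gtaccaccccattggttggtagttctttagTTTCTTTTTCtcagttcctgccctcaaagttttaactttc
Trim12c, chr7:104353339-104353408, minus strand: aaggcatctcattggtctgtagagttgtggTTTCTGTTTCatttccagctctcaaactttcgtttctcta
Trim26, chr17:36836956-36837025, plus strand: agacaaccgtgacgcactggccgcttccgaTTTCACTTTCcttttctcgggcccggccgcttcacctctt
Trim30a and Trim30d, which rose, carry the same 10 letters, 36 to 27 and 41 to 32 bases before the start. Trim12c and Trim26, which did not pass, carry the motif as well.

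Trim14 encodes a member without a RING domain that sits at mitochondria and works with the adaptor MAVS. It had 6.70, 7.01, 5.79 and 6.33 FPKM in RI 1, 2, 4 and 5, against 2.00, 2.81, 4.02 and 1.82 FPKM in ICI 1, 2, 3 and 4. The groups did not overlap and the RI values lay close together, 6.46 ± 0.524 FPKM, against 2.66 ± 1.00 FPKM in ICI tumours (SD, n = 4 each). The difference was 1.06 on the log2(FPKM + 1) scale with an SE of 0.19 (limma adjusted p = 0.0140). Of the exon bases of Trim14 (chr4:46493781-46536141, minus strand) 31.3% are shared with Nans on the opposite strand. The sources used here do not say whether counting was by strand, and Nans had 15.01 ± 2.689 FPKM in RI and 13.7 ± 3.35 FPKM in ICI tumours (limma adjusted p = 0.639). Trim30a and Trim14 passed in each of the 8 fits that left out 1 tumour.

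Trim25 encodes the ligase that ubiquitinates the RNA sensor RIG-I. It was the most abundant of the list, with 34.7, 32.1, 24.2 and 38.2 FPKM in RI 1, 2, 4 and 5, against 24.4, 12.7, 18.3 and 11.5 FPKM in ICI 1, 2, 3 and 4. The groups overlapped at 1 point, RI 4 lying just under ICI 1. The means were 32.3 ± 5.94 FPKM in RI and 16.7 ± 5.92 FPKM in ICI tumours (SD, n = 4 each), and the log2 difference was 0.95 with an SE of 0.24 (limma adjusted p = 0.0305). Trim25 (chr11:88999376-89020293, plus strand) passed in 3 of the 8 fits that left out 1 tumour, failing without RI 1, RI 2, RI 5, ICI 2 or ICI 4.

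Trim56, whose product acts on the cGAS and STING route of DNA sensing, had 15.7, 14.2, 13.6 and 9.92 FPKM in RI 1, 2, 4 and 5, against 6.34, 7.32, 7.83 and 5.44 FPKM in ICI 1, 2, 3 and 4. All RI values lay above all ICI values, and the log2 difference was 0.89 with an SE of 0.17 (limma adjusted p = 0.0153). The gene lies at chr5:137105644-137116209 on the minus strand. Its call was lost when ICI 4 was left out, at a limma adjusted p of 0.0532.

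Trim34a and Trim30d were raised from low levels. Trim34a, the mouse relative of the human capsid-binding TRIM34, had 2.34, 3.33, 2.04 and 2.34 FPKM in RI 1, 2, 4 and 5, against 0.832, 0.947, 1.40 and 0.598 FPKM in ICI 1, 2, 3 and 4. The groups did not overlap, with a log2 difference of 0.86 and an SE of 0.18 (limma adjusted p = 0.0194), and 23.5% of its exon bases are shared with the antisense model Gm47248. The call was lost without ICI 4 or without RI 2. Trim30d, a neighbouring copy of Trim30a, had 2.098, 1.85, 1.21 and 2.73 FPKM in RI 1, 2, 4 and 5, against 0.695, 0.666, 0.863 and 0.256 FPKM in ICI 1, 2, 3 and 4. All RI values were above all ICI values, and the log2 difference was 0.87 with an SE of 0.21 (limma adjusted p = 0.0255). Trim30d met the level required for testing through the RI tumours alone, so its place among the tested genes depended on its level there. Trim34a reached 1 FPKM in 4 RI tumours but in only 1 ICI tumour, so its place too depended on its level in RI tumours. Trim30d lost the call without ICI 4, RI 1, RI 2 or RI 5.

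**Figure D2:**
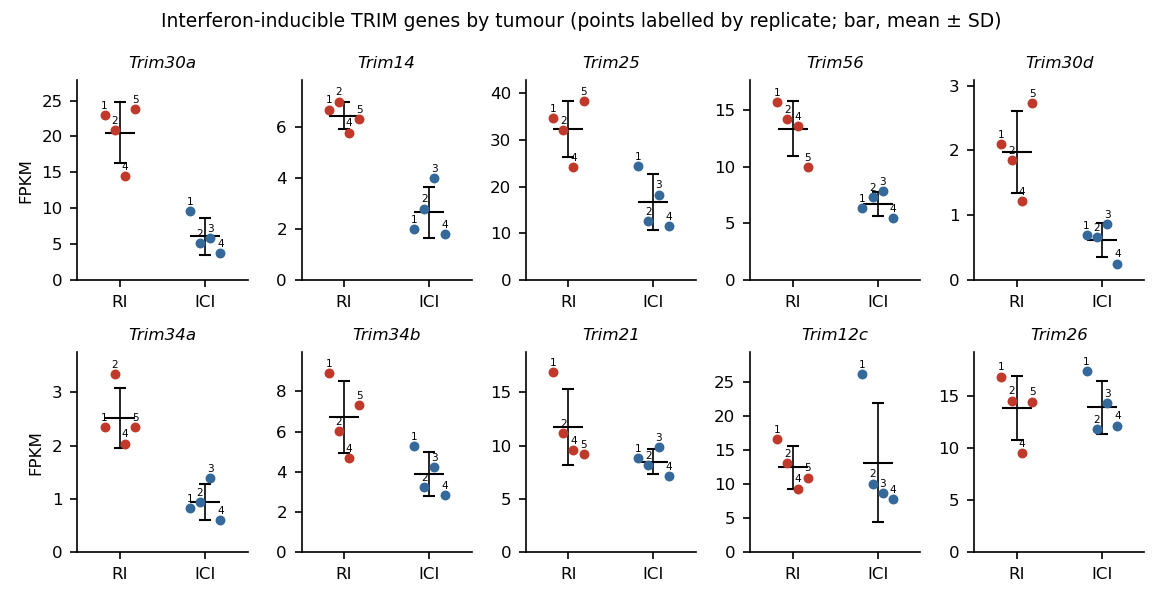
FPKM of the 10 interferon-inducible TRIM genes tested, 1 panel per gene, RI left and ICI right; points are tumours labelled by replicate and the bar is the mean ± SD of 4 tumours. Trim30a and Trim14 show RI values wholly above the ICI values, whereas the groups of Trim12c and Trim26 overlap.

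The other 4 inducible genes tested did not pass. Trim34b had 8.90, 6.02, 4.68 and 7.32 FPKM in RI 1, 2, 4 and 5, against 5.28, 3.24, 4.23 and 2.86 FPKM in ICI 1, 2, 3 and 4, with a log2 difference of 0.65 ± 0.21 SE (limma adjusted p = 0.0607). Trim21, the cytosolic antibody receptor, had 16.9, 11.2, 9.59 and 9.19 FPKM in RI 1, 2, 4 and 5, against 8.83, 8.19, 9.87 and 7.11 FPKM in ICI 1, 2, 3 and 4 (limma adjusted p = 0.178). Its groups overlapped, and RI 1 was the highest tumour. Trim12c, one of the mouse relatives of primate TRIM5, had 16.5, 13.1, 9.33 and 11.0 FPKM in RI 1, 2, 4 and 5, against 26.1, 10.1, 8.65 and 7.84 FPKM in ICI 1, 2, 3 and 4. ICI 1 held its highest value, and the means of 12.5 ± 3.11 FPKM in RI and 13.2 ± 8.66 FPKM in ICI tumours differed by less than the SD (limma adjusted p = 0.911). Trim26, which lies beside the major histocompatibility complex genes of chromosome 17, had 16.8, 14.5, 9.47 and 14.4 FPKM in RI 1, 2, 4 and 5, against 17.3, 11.8, 14.3 and 12.1 FPKM in ICI 1, 2, 3 and 4. The group means of Trim26 were 13.8 ± 3.10 FPKM in RI and 13.9 ± 2.56 FPKM in ICI tumours (limma adjusted p = 0.957).

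Below the level required for testing stood Trim30b, Trim30c, Trim5 and Trim12a, which were compared by an exact permutation test, two-sided, with a smallest possible p of 0.0286. Trim30c had 38, 42, 15 and 104 fragments in RI 1, 2, 4 and 5, against 6, 0, 9 and 3 fragments in ICI 1, 2, 3 and 4. All RI values lay above all ICI values at this low level (0.240 to 1.42 FPKM in RI and 0 to 0.143 FPKM in ICI tumours). The exact permutation p was that smallest value and 0.329 after Benjamini-Hochberg adjustment over the 23 members below the level. Trim30b was dominated by 1 library: 0.216, 0.417, 0.194 and 0.252 FPKM in RI 1, 2, 4 and 5, against 12.8, 0.382, 0.293 and 0.806 FPKM in ICI 1, 2, 3 and 4 (exact permutation p = 0.0857). The high value is that of ICI 1. That tumour had the highest neutrophil, B and plasma cell, endothelial and erythroid marker sums, and the part of these cell types in the value was not tested. Trim5 stayed at or under 0.303 FPKM and Trim12a at or under 0.541 FPKM in every tumour, with exact permutation p-values of 0.543 and 0.457.

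Over the 10 inducible genes tested the median log2 difference was 0.86, against 0.01 over all genes tested and 0.04 over the 28 other TRIM genes tested. Trim30d passed the level through RI tumours only, and Trim34a reached it in only 1 ICI tumour. The same was therefore computed over every member with no such requirement, giving a median of 0.69 over the 14 inducible genes and -0.01 over the 47 other TRIM genes. Summed over its members, the inducible list took 145.0, 125.7, 94.91 and 126.9 FPKM in RI 1, 2, 4 and 5, against 115.0, 63.41, 75.79 and 54.25 FPKM in ICI 1, 2, 3 and 4. RI 4 lay below ICI 1 in this sum, and the other tumours did not overlap.

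A group of 10 members, 9 of them on the inducible list, stands together on chromosome 7, where Trim6, Trim34a, Trim5, Trim12a, Trim34b, Trim12c, Trim30b, Trim30c, Trim30a and Trim30d follow each other in this order. The genes of the cluster arose by repeated duplication and differ between mammals, and their copies are alike enough that reads can be split between them, so single values within the cluster are uncertain. At the start sites, 276 of 295 aligned bases were identical between Trim30a and Trim30d (93.6%), and all 241 aligned bases between Trim12a and Trim5. Trim30a and Trim30d still differed in level: Trim30a stood at 20.5 ± 4.23 FPKM in RI tumours, and Trim30d at 1.98 ± 0.629 FPKM (SD, n = 4 each). Trim5 and Trim12a were both near 0. Trim30a, Trim30d and Trim34a were higher in RI tumours, Trim34b and Trim12c did not pass, and neither did Trim6, at a log2 difference of -0.25 (limma adjusted p = 0.429). Called and uncalled genes thus stood side by side in the cluster.

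**Figure D3:**
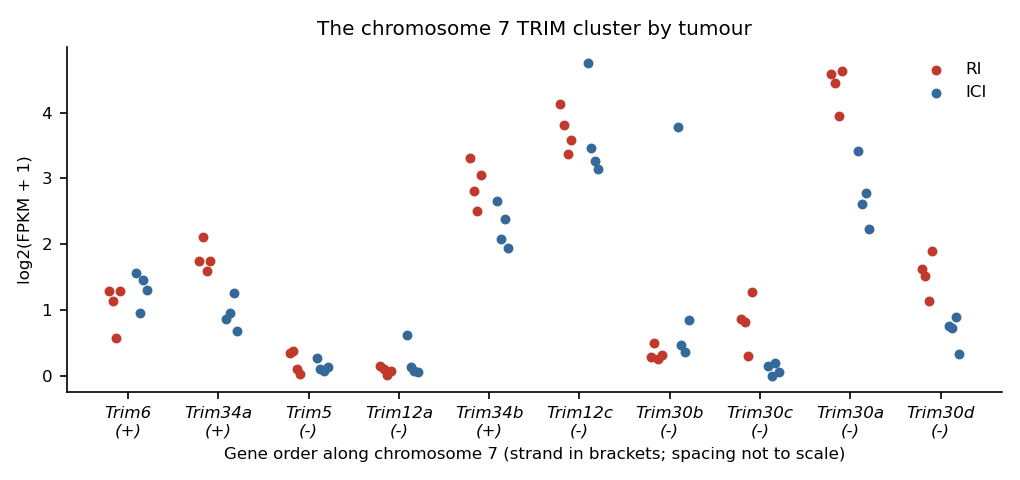
log2(FPKM + 1) of each tumour for the 10 genes of the chromosome 7 TRIM cluster in genomic order, RI in red and ICI in blue, with the strand in brackets. Trim30a separates the groups most widely, while single ICI 1 values stand out in Trim30b (12.8 FPKM) and Trim12c (26.1 FPKM).

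A RefSeq window of 250 bases before to 50 bases after an annotated start was at hand for 46 of the 61 members, and for 13 of the 14 inducible ones. Searched on both strands, the letters GAAA, any 2 bases and GAAA were found in 8 of these 13 inducible genes (61.5%) and in 1 of 33 other TRIM genes (3.03%), against 3.99% of all 27025 genes with a window. The 8 were Trim5, Trim12a, Trim12c, Trim21, Trim26, Trim30a, Trim30d and Trim34a, and the other TRIM gene was Trim2. All of the 8 but Trim21 and Trim26 lie in the duplicated chromosome 7 cluster. There the aligned window bases were 95% identical between Trim12a and Trim12c and 93.6% between Trim30a and Trim30d. The matches are thus not all independent, and the 61.5% does not rest on 13 separate promoters. The match in Trim34a read TTTCAGTTTC and that in Trim21 GAAACTGAAA, both within 30 bases after the start, and Trim21 and Trim26 each held a second, overlapping match. Of the 8 genes with a match, Trim30a, Trim30d and Trim34a rose, Trim12c, Trim21 and Trim26 did not pass, and Trim5 and Trim12a were below the level tested. Trim25 and Trim56 were higher in RI tumours and had no match in these windows. A match is a run of letters, not a measured site, and the windows of Trim5 and Trim12a start at no GENCODE transcript start.

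**Figure D4:**
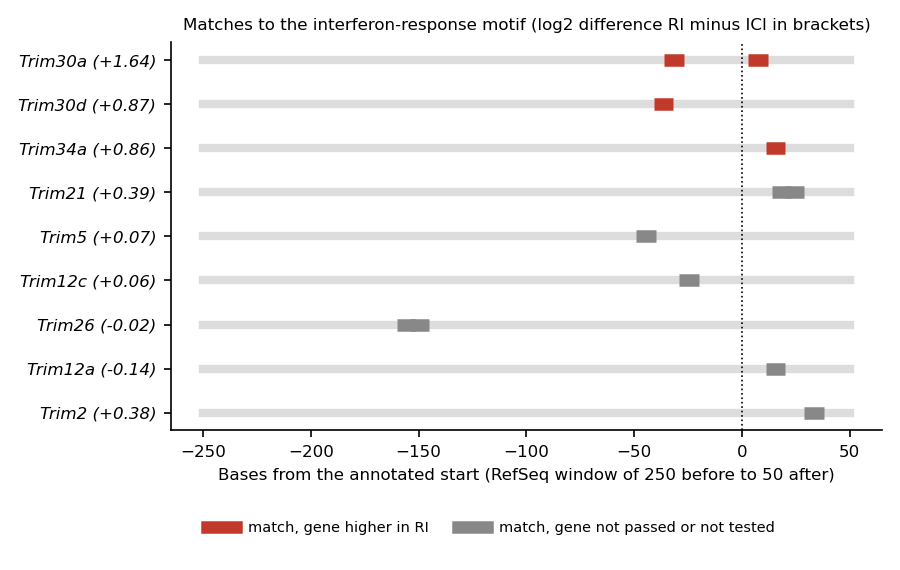
Position of each match to GAAA, any 2 bases and GAAA, on either strand, in the RefSeq windows of the TRIM genes that hold one; the horizontal axis is bases from the annotated start and the grey band is the window. Matches of genes higher in RI (Trim30a, Trim30d, Trim34a) and of genes that did not pass or were not tested are both found close to the start, and that of Trim26 lies 160 to 145 bases before it.

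Of the constitutive members, Trim35 was the 1 that was higher in RI tumours. Trim35, also known as Hls5, was found as a factor of blood cell maturation and slows growth when overproduced. It had 39.7, 35.9, 30.8 and 50.7 FPKM in RI 1, 2, 4 and 5, against 8.98, 18.8, 19.6 and 15.3 FPKM in ICI 1, 2, 3 and 4. The groups lay far apart, with means of 39.3 ± 8.44 FPKM in RI and 15.7 ± 4.83 FPKM in ICI tumours (SD, n = 4 each), a ratio of 2.51. The log2 difference was 1.30 with an SE of 0.25 (limma adjusted p = 0.0153), second in size to that of Trim30a in the family. Trim35 (chr14:66297031-66311424, plus strand) passed in 7 of the 8 fits that left out 1 tumour, the exception being that without ICI 4 at a limma adjusted p of 0.0527.

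Trim39 and Trim3 were lower in RI tumours. Trim39, whose product stabilises the apoptosis regulator MOAP1, had 10.1, 8.83, 5.998 and 7.73 FPKM in RI 1, 2, 4 and 5, against 20.4, 12.7, 13.9 and 14.1 FPKM in ICI 1, 2, 3 and 4. All RI values were below all ICI values, as in 11.2% of all genes tested, at a log2 difference of -0.82 with an SE of 0.19 (limma adjusted p = 0.0234). The gene lies at chr17:36258873-36272247 on the minus strand, and the call was lost without ICI 4, RI 2 or RI 5. Trim3, an NHL-repeat protein of neurons and vesicle traffic, had 10.5, 11.1, 8.49 and 11.3 FPKM in RI 1, 2, 4 and 5, against 29.5, 13.7, 13.6 and 20.1 FPKM in ICI 1, 2, 3 and 4. Here too the groups did not overlap, and the log2 difference was -0.78 with an SE of 0.24. Its limma adjusted p of 0.04995 lay at the threshold, and the call held in 3 of the 8 fits that left out 1 tumour, failing without ICI 4 or any single RI tumour.

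Among the abundant TRIM genes outside the inducible list, Trim28, Trim8, Trim47 and Trim59 did not pass the test. Trim28 encodes KAP1, the co-repressor that KRAB zinc finger proteins use to silence retroelements, and had 94.3, 88.9, 71.2 and 97.9 FPKM in RI 1, 2, 4 and 5, against 42.4, 75.4, 84.8 and 70.8 FPKM in ICI 1, 2, 3 and 4. ICI 1 was lowest and the other tumours overlapped (limma adjusted p = 0.241). Trim8, which acts on SOCS1 and for which induction by interferon has been reported in some cells, had 38.2, 37.5, 30.1 and 47.7 FPKM in RI 1, 2, 4 and 5, against 34.6, 40.1, 51.4 and 33.3 FPKM in ICI 1, 2, 3 and 4 (limma adjusted p = 0.870). Trim47 had 36.9, 37.2, 29.7 and 35.4 FPKM in RI 1, 2, 4 and 5, against 20.8, 33.3, 42.0 and 37.4 FPKM in ICI 1, 2, 3 and 4 (limma adjusted p = 0.771), and shares 225 exon bases with Trim65 on the same strand. The groups overlapped in both genes. Trim59 had 27.2, 25.5, 22.8 and 30.8 FPKM in RI 1, 2, 4 and 5, against 9.54, 20.0, 26.2 and 12.9 FPKM in ICI 1, 2, 3 and 4, with ICI 3 inside the RI range (limma adjusted p = 0.105). ICI 1 was the lowest tumour in Trim28, Trim35, Trim47 and Trim59.

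**Figure D5:**
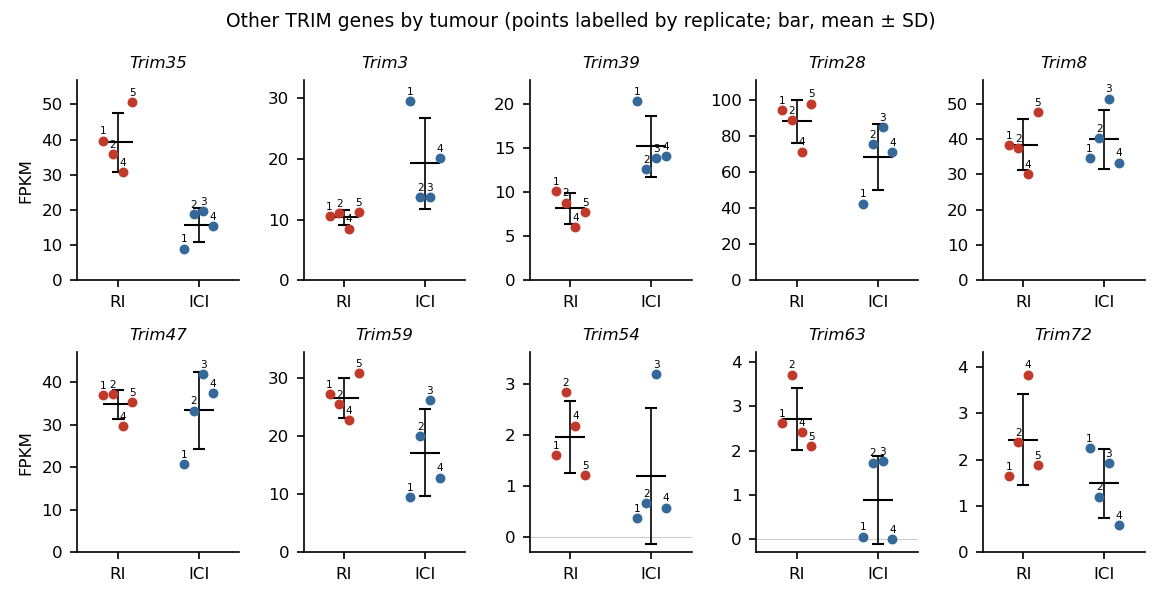
FPKM of TRIM genes outside the interferon-inducible list, 1 panel per gene, RI left and ICI right; points are tumours labelled by replicate and the bar is the mean ± SD of 4 tumours. Trim35 is higher in all RI tumours (30.8 to 50.7 FPKM against 8.98 to 19.6 FPKM), Trim39 and Trim3 are lower in all of them, and the other 7 genes did not pass the test.

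The rest of the constitutive list spread on both sides of 0. Trim37, a ligase of the centrosome, and Trim32, an NHL-repeat ligase mutated in human limb-girdle muscular dystrophy, had all RI values above all ICI values without passing, at log2 differences of 0.69 ± 0.22 SE and 0.56 ± 0.18 SE (limma adjusted p = 0.0564 and 0.0561). Trim44 was close to them at 0.59 ± 0.18 SE (limma adjusted p = 0.0510). On the other side, Trim11 had 14.09, 14.03, 8.89 and 14.8 FPKM in RI 1, 2, 4 and 5, against 46.0, 14.8, 17.7 and 19.2 FPKM in ICI 1, 2, 3 and 4, at a log2 difference of -0.75 ± 0.33 SE that was led by ICI 1 (limma adjusted p = 0.136). Trim68 and Trim13 had log2 differences of -0.62 ± 0.22 SE and -0.57 ± 0.20 SE (limma adjusted p = 0.0755 and 0.0735). The transcriptional regulators related to Trim28 were Trim24, at -0.03 (limma adjusted p = 0.939), and Trim33, a partner of the SMAD proteins, at 0.27 (limma adjusted p = 0.170). Over the 21 constitutive genes tested the median log2 difference was 0.10 and 11 were positive. The summed level of the list was 330.5, 318.6, 256.4 and 348.0 FPKM in RI 1, 2, 4 and 5, against 274.3, 275.2, 307.3 and 270.7 FPKM in ICI 1, 2, 3 and 4, with RI 4 the lowest of all tumours. Trim62, the constitutive member below the level tested, had 0.230 to 0.558 FPKM in RI and 0.228 to 3.27 FPKM in ICI tumours (exact permutation p = 0.686).

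Of the members with induction reported in some cells, Trim8 and Trim6 were tested and neither passed, at an unadjusted p under 0.05 or by voom either. Trim15, Trim38 and Trim69 stayed at or under 0.758 FPKM, with exact permutation p-values of 0.914, 0.143 and 0.143.

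Of the tissue-restricted members 5 were tested and none was called by limma, while at an unadjusted p under 0.05 there were 1 higher and 1 lower, and by voom 0 higher and 1 lower. Trim63, which encodes the muscle ligase MuRF1 that drives the breakdown of myofibrils, had 2.62, 3.72, 2.43 and 2.11 FPKM in RI 1, 2, 4 and 5, against 0.0641, 1.74, 1.77 and 0 FPKM in ICI 1, 2, 3 and 4. All RI values lay above all ICI values, at a log2 difference of 1.12 ± 0.37 SE (limma adjusted p = 0.0614). Trim54, which encodes MuRF3, had 1.60, 2.84, 2.18 and 1.21 FPKM in RI 1, 2, 4 and 5, against 0.359, 0.656, 3.19 and 0.573 FPKM in ICI 1, 2, 3 and 4 (limma adjusted p = 0.277). Its highest value was that of ICI 3, and 26.6% of its exon bases are shared with the antisense model Gm15469. Trim72, which encodes the membrane repair protein MG53, had 1.64, 2.37, 3.83 and 1.88 FPKM in RI 1, 2, 4 and 5, against 2.24, 1.20, 1.93 and 0.589 FPKM in ICI 1, 2, 3 and 4, with overlapping groups (limma adjusted p = 0.233), and shares 27.6% of its exon bases with Gm15533. Trim55, for MuRF2, was at or under 0.571 FPKM in every tumour (exact permutation p = 0.143).

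Markers of skeletal muscle were present in these tumours and varied between them. Their 15 genes summed to 342.9, 620.8, 702.2 and 151.3 FPKM in RI 1, 2, 4 and 5, against 21.16, 120.1, 334.6 and 16.31 FPKM in ICI 1, 2, 3 and 4. Of 13 muscle markers tested Ckm, Myh4 and Atp2a1 were higher in RI tumours and none was lower, against 11.1% higher among all genes tested. In ICI 1 and ICI 4, where Trim63 was 0.0641 and 0 FPKM, 3 and 4 of the 15 markers were at 0. In ICI 3, where Trim54 was highest, none was. Other values went the other way: RI 5 had more Trim63 than ICI 3 (2.11 against 1.77 FPKM) at a lower marker sum. Trim72 was highest among the ICI tumours in ICI 1, at 2.24 FPKM, where the marker sum was 21.16 FPKM. The part of muscle tissue in the levels of Trim63, Trim54 and Trim72 was not tested.

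Trim10, a gene of red cell precursors, had 0 fragments in each RI tumour and 10, 1, 6 and 6 fragments in ICI 1, 2, 3 and 4. The exact permutation p was 0.0286, the smallest possible, and 0.329 after adjustment over the members below the level. With 3 fragments as the least that counts as detected, the RI tumours are not shown to lack it. The 9 erythroid markers summed to 103.5, 99.66, 79.4 and 1.741 FPKM in RI 1, 2, 4 and 5, against 1063.9, 209.9, 473.8 and 577.2 FPKM in ICI 1, 2, 3 and 4, so they moved with Trim10, and their part in it was not tested. In RI 5, 6 of the 9 were at 0. Trim29, a member without a RING domain that is made in stratified and lung epithelium, had 0.266, 0.340, 0.206 and 0.128 FPKM in RI 1, 2, 4 and 5, against 2.26, 0, 0.0471 and 0.108 FPKM in ICI 1, 2, 3 and 4, and was carried by ICI 1 (exact permutation p = 1). The keratinocyte marker sums were 2.377 to 7.608 FPKM in RI and 2.934 to 5.307 FPKM in ICI tumours.

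Trim7, which binds glycogenin, was tested because its level passed in the ICI tumours alone, with 0.931, 0.438, 0.568 and 0.679 FPKM in RI 1, 2, 4 and 5, against 1.498, 1.10, 1.10 and 1.35 FPKM in ICI 1, 2, 3 and 4. All RI values lay below all ICI values, and it did not pass (log2 difference -0.46, limma adjusted p = 0.0804). Trim46, a neuronal microtubule protein, had a log2 difference of -0.05. The other 12 tissue-restricted members, Trim9, Trim17, Trim36, Trim40, Trim43a, Trim43b, Trim43c, Trim50, Trim66, Trim67, Trim71 and Trim75, reached at most 1.48 FPKM in any tumour and had exact permutation p-values of 0.0857 or more.

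Some TRIM proteins carry other gene symbols and so were not among the 61. Pml, which is TRIM19 and is induced by interferon, averaged 21.8 ± 3.50 FPKM in RI and 11.1 ± 2.51 FPKM in ICI tumours (SD, n = 4 each) and was higher in RI at a log2 difference of 0.92 (limma adjusted p = 0.0169). Mid1, which is TRIM18, a microtubule-bound ligase mutated in human Opitz syndrome, averaged 1.60 ± 0.321 FPKM in RI and 4.89 ± 2.08 FPKM in ICI tumours and was lower (limma adjusted p = 0.0187). Mefv, which is TRIM20 or pyrin, averaged 1.95 ± 0.420 FPKM in RI and 3.27 ± 2.29 FPKM in ICI tumours and did not pass (limma adjusted p = 0.367). Mid2 and Rnf207 were below the level tested.

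The partners of the inducible TRIM proteins were read from 3 lists. Of 10 genes of the RIG-I pathway tested, in which Trim25 acts, 5 were higher in RI tumours, 1 was lower and 4 did not pass, with a median log2 difference of 0.62, against 11.1% higher and 6.6% lower among all genes tested. The sensor gene Rigi had 13.9 ± 2.87 FPKM in RI and 5.90 ± 1.44 FPKM in ICI tumours (SD, n = 4 each; limma adjusted p = 0.0152). Mavs, the mitochondrial adaptor that Trim14 works with, had 14.8 ± 1.014 FPKM in RI and 6.77 ± 1.46 FPKM in ICI tumours (limma adjusted p = 0.0121). Ifih1, Dhx58 and Traf3 were also higher, whereas Irf3, the transcription factor at the end of the pathway, was lower at a log2 difference of -0.80 (limma adjusted p = 0.031). Of 16 genes of the interferon receptor and signalling chain 4 were higher, none lower and 12 did not pass, with a median of 0.44 (8 higher and 0 lower by limma at an unadjusted p under 0.05, 5 and 0 by voom), against 11.1% higher among all genes tested. Those that rose were Jak1 (0.49), Jak2 (0.84), Irf7 (1.40) and Usp18 (1.546), at log2 differences in brackets and limma adjusted p-values of 0.0339, 0.0173, 0.0263 and 0.0117. Of 12 co-repressor partners of Trim28 2 were higher, 1 was lower and 9 did not pass, with a median of 0.12, a share near the 11.1% higher and 6.6% lower among all genes tested. Cbx5, for the heterochromatin protein HP1 alpha, had 23.7 ± 1.43 FPKM in RI and 11.9 ± 2.57 FPKM in ICI tumours (limma adjusted p = 0.0130), Atf7ip was also higher, and Zfp57, a KRAB zinc finger gene of imprinted loci, had 5.74 ± 1.47 FPKM in RI and 12.3 ± 2.29 FPKM in ICI tumours (limma adjusted p = 0.0162).

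Interferon-stimulated genes outside the family were set beside the inducible TRIM genes by tumour. Their list shares Ifih1 with the RIG-I pathway list, and Irf7, Usp18 and Isg15 with the signalling chain list, so these lists are not separate evidence. Of the 22 genes of a type I interferon list 17 were higher and none lower, against 11.1% and 6.6% of all genes tested. These 22 genes summed to 770.4, 599.3, 396.6 and 899.8 FPKM in RI 1, 2, 4 and 5, against 298.6, 345.9, 433.4 and 251.2 FPKM in ICI 1, 2, 3 and 4. Their median log2 difference was 1.22, against 0.86 over the inducible TRIM genes tested. RI 4 was the lowest RI tumour in both sums, and ICI 4 the lowest ICI tumour in both. ICI 1, by contrast, was the highest ICI tumour in the inducible TRIM sum but not in the interferon list, where ICI 3 was highest. The 10 markers of macrophages, cells in which Trim30a is known to be made, summed to 586.7, 474.5, 354.6 and 862.9 FPKM in RI 1, 2, 4 and 5, against 387.6, 465.9, 366.2 and 358.0 FPKM in ICI 1, 2, 3 and 4, with 2 of 9 tested higher and none lower. The groups overlapped in this sum. The 10 fibroblast markers summed to 156, 542.2, 124.1 and 256.8 FPKM in RI 1, 2, 4 and 5, against 71.24, 66.13, 86.71 and 67.87 FPKM in ICI 1, 2, 3 and 4, without overlap, with 4 of 9 tested higher, none lower and a median log2 difference of 1.12. Over all genes tested 11.1% were higher and 6.6% lower, and the part of either cell type in the TRIM levels was not tested.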

How the data were processed

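RNA of 8 whole tumours had been sequenced. The deposited values were FPKM, in 1 table; HISAT2 and GRCm38 (mm10) are named, per the submitters' processing notes, without a version. Counting program, strand setting and annotation: not given in the sources used here.

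Of 32098 genes 31407 matched GENCODE M21, used for coordinates and exon lengths. Fragments were recovered from FPKM steps of up to 50 fragments (98.61% to 98.81% whole within 0.05) and served for depth and 1 alternative fit. Each pair of libraries within a group differed beyond sampling noise (chi-square per gene of 37.3 or more). Genes reaching 1 FPKM in 4 or more tumours were tested on log2(FPKM + 1), a scale that understates changes of low genes, with limma 3.58.1 in R 4.3.3 (trend and robust variance, two-sided, Benjamini-Hochberg). The test was checked on simulated data. Members below that level got an exact permutation test (70 regroupings of the tumours).

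The members and lists were chosen with earlier results of these data known. Values in every tumour are given for inducible members tested, other members called, the 5 most abundant members outside the inducible list (Trim28, Trim8, Trim47, Trim35 and Trim59), and muscle, erythroid and epithelial members; Trim7, Trim11, Trim30b and Trim30c were added after their values were seen. The symbols Trim31, Trim42, Trim52, Trim58, Trim60, Trim61 and Trim80 were listed but not analysed here.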

Additional observations from a re-analysis of the deposited data

Results flagged for a closer look

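Within each group of 4 tumours the highest and the lowest value of each tested TRIM gene were set against the rest, in 76 groups, and 6 stood apart by Dixon's criterion (the gap to the nearest tumour as a share of the group's range). Chance alone gives about 1 in 20 groups. In the RI tumours, Trim11 was low in replicate 4, at 8.892 FPKM. In the ICI tumours, replicate 1 was high for Trim11 (45.98 FPKM), Trim41 (25.02 FPKM) and Trim12c (26.07 FPKM). ICI replicate 3 was high for Trim65 (7.929 FPKM) and for Trim54 (3.187 FPKM).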

How the results depend on the processing

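Under 20 other settings no TRIM gene that was called reversed its direction, and the counts moved. Against 7 higher and 2 lower, testing every gene with no requirement on level gave 1 higher (Trim30a) and 0 lower (limma, with 15 and 6 at an unadjusted p under 0.05), TPM gave 3 higher and 0 lower (11 and 0 unadjusted), a pseudocount of 5 gave 1 lower, and leaving out ICI 1 and RI 4 together gave 1 lower. Upper-quartile scaling and median centring each gave 4 lower, voom on fragments 12 higher, and array weights 11 higher. Leaving out 1 tumour at a time gave between 2 and 12 higher and between 0 and 3 lower, the fewest higher without ICI 4 (Trim14 and Trim30a) and the most without ICI 3. Over all genes 62.6% of calls were higher, against 78.8% with no requirement on level, 53.5% with upper-quartile scaling and 48.0% with median centring, and TPM moved the median of all genes to 0.11. The cause of these shifts was not tested.

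With the group mean of each gene removed, same-numbered RI and ICI tumours (replicates 1, 2 and 4) correlated at -0.0923, -0.120 and -0.124. None of these values was positive, but so few values cannot decide whether the replicate numbers pair the samples. With the number as a block, in which RI 5 and ICI 3 have no partner and add nothing, limma called 0 TRIM genes higher and 0 lower (15 and 5 at an unadjusted p under 0.05), and 16 higher and 6 lower among all genes.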

Other observations

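Single tumours took the extreme values of the TRIM genes unevenly, in part as they did over all genes. RI 4 was the lowest of the 8 tumours for 14 of the 38 TRIM genes tested, a share close to the 36.3% of all genes tested. ICI 4 was the lowest for 12 of them, against 13.3% of all genes. ICI 1 was the lowest for 9 and the highest for 10, against 29.2% and 24% of all genes, and RI 5 was the highest for 11, against 20.3%. Between 33 and 38 of the 61 members reached 1 FPKM in a tumour.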
